A study of Mus musculus with 16 samples.

Results

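The age course of gene expression in the lumbar spinal cord of SOD1G93A mice was followed from 40 to 80 days, both ages before the onset of symptoms. All arrays labeled SOD1G93A were taken, 4 of mice of 80 days and 4 of mice of 40 days, which makes 8 of the 16 arrays of the study. The other 8 arrays hold cord of non-transgenic wild-type mice of the same ages, 4 for each age. SOD1G93A mice carry many copies of a human *SOD1* transgene with a glycine-to-alanine mutation and develop a motor neuron disease that serves as a model of amyotrophic lateral sclerosis. Per the methods the animals were males, and the labels give both genotypes the B6SJL background and call the arrays of a group biological replicates. The methods also state that arrays of insufficient quality had been removed before analysis. Each array carried Cy3-labeled cRNA of lumbar cord and a Cy5-labeled reference made of neonatal heart, kidney and liver RNA of both genotypes, and no array had the dyes exchanged. Values are log2 ratios of Cy3 to Cy5, and a change is the mean at 80 days minus the mean at 40 days on this log2 scale. Since whole cord was used, fewer cells of a type and less RNA per cell cannot be told apart in any change given here.

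Myelin is a stack of oligodendrocyte membrane that is rich in cholesterol and in the sphingolipids galactosylceramide and sulfatide. Cholesterol does not cross from blood to nervous tissue in useful amounts, so oligodendrocytes and astrocytes make it from acetyl-CoA through the mevalonate pathway, whose genes are driven together by the transcription factor SREBP2. In the mouse cord, myelination begins around birth, runs through the first postnatal weeks and slows in young adults. In SOD1G93A mice, loss of motor neurons is a known feature of later disease stages. Activation of microglia and astrocytes near motor neurons has been described as an early event that seemed to come before neuronal death.

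Sterol synthesis held more genes that fell than any other of the 47 gene lists looked at, and for this reason the sequence before the start site of 4 of them is shown. RefSeq promoters, on the GRCm38.p6 build, were at hand for 15 genes of the sterol list, 7 of them among the 10 that fell. The 150 bases before the start are printed 5′ to 3′ on the strand of the gene. Capitals mark the CCAAT box (letters CCAAT, or ATTGG on the other strand), which nuclear factor Y binds, and the core of the sterol regulatory element (letters TCACCCCAC), which SREBP binds. *Hmgcs1* lies on the plus strand and its window is chr13:119690201-119690350, *Cyp51* on the minus strand with chr5:4104698-4104847, *Lss* on the plus strand with chr10:76531455-76531604 and *Msmo1* on the minus strand with chr8:64733579-64733728.
Hmgcs1: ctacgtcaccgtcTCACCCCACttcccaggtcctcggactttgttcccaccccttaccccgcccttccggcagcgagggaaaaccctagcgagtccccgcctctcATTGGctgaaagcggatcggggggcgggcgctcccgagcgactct
Cyp51: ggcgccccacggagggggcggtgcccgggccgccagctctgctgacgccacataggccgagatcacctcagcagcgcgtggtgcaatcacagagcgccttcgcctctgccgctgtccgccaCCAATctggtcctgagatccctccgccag
Lss: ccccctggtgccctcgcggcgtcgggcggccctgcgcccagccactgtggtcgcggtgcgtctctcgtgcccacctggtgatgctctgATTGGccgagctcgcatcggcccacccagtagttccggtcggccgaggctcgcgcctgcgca
Msmo1: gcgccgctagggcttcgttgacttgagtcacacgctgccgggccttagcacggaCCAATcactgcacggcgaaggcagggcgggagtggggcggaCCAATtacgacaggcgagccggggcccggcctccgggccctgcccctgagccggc
In the 250 bases before the start, on both strands, the CCAAT box was found in all 15 sterol genes and in 10133 of 27025 genes in all (37.5%). The sterol regulatory element core in these exact letters was found in 1 of the 15, *Hmgcs1*, and in 150 of all genes (0.555%). Each of the 4 windows printed holds a CCAAT box, but not every gene that fell has 1 so near its start. The 150 bases before the first listed start of *Dhcr7*, not printed, hold 0 matches of either motif. The 2 motifs do not overlap in the windows printed, and a match of letters is a description and no evidence of binding in these cords.

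Among the genes called after adjustment, falls outnumbered rises, while at an unadjusted p under 0.05 more genes were higher. Probes entered the test where 3 or more of the 4 arrays of an age had a Cy3 signal marked well above background, and a gene with several probes is given by its brightest. At a Benjamini-Hochberg adjusted p under 0.05 in limma, 57 of 21507 probes were higher at 80 days and 197 were lower. By gene, 47 of 12946 were higher (0.363%) and 144 were lower (1.11%), with a median change over all genes of 0.01. At an unadjusted p under 0.05, 1289 genes were higher (9.96%) and 1117 were lower (8.63%). Most changes were small, with 3 of the 191 called genes above 1 in size. The 4 arrays of one age did not overlap the 4 of the other for 186 of the 191, and over all genes this held for 942 that were higher (7.28%) and 829 that were lower (6.4%). Of the 191, 187 changed in the same direction on all 4 slides, and over all 12946 genes 4039 did. The 191 were called on these same arrays, so neither count is separate support for them. The neighbors of the threshold were *Cracdl*, with an adjusted p of 0.04999, and *Get4*, with 0.0502. The authors' normalized log2 values, set to common quantiles, gave 17 probes higher and 131 lower.

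Facts of the arrays bear on what follows. Cy3 was well above background for 53.1% to 56.1% of probes on the arrays of 40 days and for 49.8% to 55.7% on those of 80 days. Each slide held 1 array of each group, with SOD1G93A of 40 days always at the second place and SOD1G93A of 80 days at the fourth, so that place on the slide and group cannot be told apart. On replicate 4 of either age, 5 and 63 spots lay over 20 units below a bright local background. These local backgrounds were set to the median of the array, and without that step 13 probes were called higher and 66 lower. On replicate 4 of 80 days the lists of microglia, activated microglia, reactive astrocytes, interferon response and MHC class I genes stood above all other arrays, and on replicate 2 of 40 days the skeletal muscle list did. Mouse *Sod1* read 0.023, -0.010, 0.13 and 0.12 on the arrays of 40 days and 0.16, 0.035, -0.11 and 0.11 on those of 80 days, a change of -0.018 (SE 0.070, limma adjusted p = 0.925). Whether its probe binds transcripts of the human transgene was not tested. *Gapdh*, the glycolytic enzyme often used as a reference transcript, changed by 0.035 (SE 0.048, limma adjusted p = 0.753).

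Genes of cholesterol synthesis had lower ratios at 80 days along most of the pathway. Of 21 genes of sterol synthesis and uptake tested, 10 fell and 0 rose, against 1.11% falls and 0.363% rises over all genes. A total of 15 were lower at an unadjusted p under 0.05, against 8.63% of all genes, and the median change of the list was -0.32. In all, 20 of the 21 changes were negative, with *Insig1* (0.010) the exception. A dimmer probe of *Insig1* was at -0.17 without overlap of the ages (unadjusted p = 0.037 in limma). For 13 genes of the list the 2 ages did not overlap, all of them lower at 80 days, against 6.4% of all genes. *Idi1*, also on the list, was not matched to a named probe.

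The largest fall of the list was at the entry to the mevalonate pathway. *Hmgcs1*, the synthase of HMG-CoA, read 2.58, 2.79, 2.63 and 2.82 in replicates 1 to 4 at 40 days and 1.83, 1.66, 1.59 and 1.56 at 80 days. All 4 arrays of 80 days lay below all 4 of 40 days, and its other probe fell as well. The fall was 1.04 on the log2 scale (SE 0.11, limma adjusted p = 0.000181).

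In the middle of the pathway, where squalene is oxidized and closed to lanosterol, *Sqle* and *Lss* fell. *Sqle*, squalene epoxidase (probe at chromosome 15, 59397289 to 59397348 of the mm7 build that the files name), read 2.01, 2.15, 2.07 and 2.03 at 40 days and 1.49, 1.47, 1.24 and 1.28 at 80 days. Every array of 80 days was below every array of 40 days, and *Sqle* fell by 0.69 (SE 0.083, limma adjusted p = 0.000519). *Lss*, lanosterol synthase, fell by 0.54 (SE 0.10, limma adjusted p = 0.0118), from a range of 1.13 to 1.55 to a range of 0.72 to 0.99.

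Enzymes that turn lanosterol into cholesterol fell by smaller amounts. *Cyp51*, the lanosterol demethylase, read 2.20, 2.16, 2.04 and 2.12 at 40 days and 1.56, 1.56, 1.64 and 1.49 at 80 days. The ages were apart, all 3 of its probes passed, and *Cyp51* fell by 0.57 (SE 0.082, limma adjusted p = 0.00202). *Dhcr7*, which makes cholesterol from its last precursor, fell by 0.53 (SE 0.084, limma adjusted p = 0.00417), although its dimmer probe changed by -0.0029. *Tm7sf2*, a sterol reductase, fell by 0.52 (SE 0.085, limma adjusted p = 0.00487), and *Msmo1*, a methyl oxidase, by 0.48 (SE 0.076, limma adjusted p = 0.00399). *Ebp*, the sterol isomerase, had the smallest fall among those called, 0.32 (SE 0.057, limma adjusted p = 0.0089). *Hsd17b7* (-0.47, limma adjusted p = 0.0548) and *Pmvk* (-0.29, limma adjusted p = 0.0565) lay just outside the threshold with no overlap of the ages. Among 23 alternatives to the processing, *Hmgcs1*, *Sqle* and *Msmo1* passed under each, while 6 members of the list passed without the reset of bright backgrounds.

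**Figure D1:**
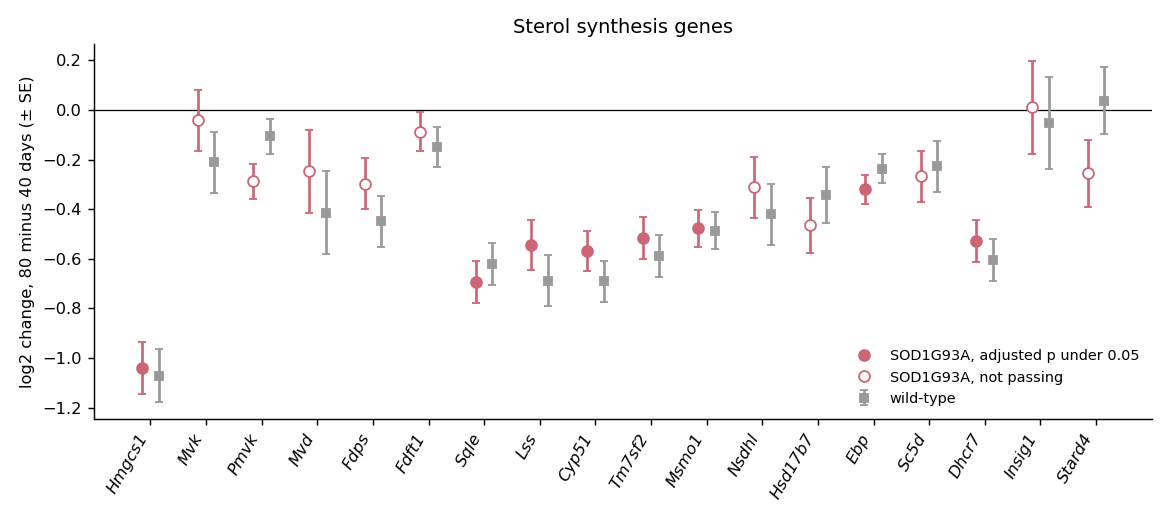
Log2 change from 40 to 80 days (vertical axis, mean ± SE from limma, 4 arrays for each age) of 18 of the sterol genes tested, in pathway order, for SOD1G93A (circles, filled where the adjusted p is under 0.05) and wild-type (squares). The 8 filled circles run from -1.04 for *Hmgcs1* to -0.32 for *Ebp*, and the squares lie below 0 for most of the same genes.

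*Srebf1*, which encodes the SREBP1 factors of fatty acid synthesis, moved the other way than the sterol enzymes. It read 0.37, 0.42, 0.36 and 0.24 at 40 days and 0.86, 0.78, 0.63 and 0.95 at 80 days. All 4 arrays of 80 days lay above those of 40 days, and *Srebf1* rose by 0.46 (SE 0.074, limma adjusted p = 0.00483).

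Most genes of fatty acid and sphingolipid synthesis had lower ratios as well. Of 18 genes tested 5 fell and 0 rose, against 1.11% falls and 0.363% rises over all genes. At an unadjusted p under 0.05, 13 were lower (8.63% of all genes), and the median change was -0.27. *Elovl1*, the elongase of very long saturated acids, read -0.28, 0.032, -0.13 and -0.070 at 40 days and -0.58, -0.57, -0.49 and -0.46 at 80 days, without overlap. It fell by 0.41 (SE 0.068, limma adjusted p = 0.00487). *Elovl6*, the elongase of palmitate, fell by 0.44 (SE 0.080, limma adjusted p = 0.0111). *Gal3st1*, the sulfotransferase that turns galactosylceramide into sulfatide, fell by 0.45 (SE 0.10, limma adjusted p = 0.0298). *Cers2*, a ceramide synthase of very long chains, fell by 0.31 (SE 0.058, limma adjusted p = 0.0129), and *Sptlc2*, a subunit of the first enzyme of sphingolipid synthesis, by 0.23 (SE 0.051, limma adjusted p = 0.0379). With the slide as a block *Sptlc2* did not pass (limma adjusted p = 0.067). *Fasn*, fatty acid synthase, did not pass (-0.02, unadjusted p = 0.78), and *Fads1*, a desaturase, was higher at an unadjusted p of 0.020 (0.22). Of the 5 calls, 1 was left without the reset of bright backgrounds and 0 without loess.

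Myelin genes fell in part. Of 19 central myelin genes tested 7 fell and 0 rose, against 1.11% falls and 0.363% rises over all genes. The median change of the list was -0.28, and 15 changes were negative. *Gsn*, which encodes the actin-severing protein gelsolin and is high in oligodendrocytes, read 0.21, 0.62, 0.60 and 1.04 at 40 days and -0.75, -0.40, -0.40 and -0.53 at 80 days. The ages did not overlap, and *Gsn* had the largest fall of any called gene, 1.14 (SE 0.14, limma adjusted p = 0.000576), at chromosome 2, 35315078 to 35315137 (mm7). *Cldn11*, the claudin of the tight junctions between myelin turns (chromosome 3, 30976006 to 30976065, mm7), read 6.20, 6.31, 6.21 and 6.40 at 40 days and 5.45, 5.12, 5.20 and 5.62 at 80 days. No array of 80 days reached one of 40 days, and it fell by 0.93 (SE 0.10, limma adjusted p = 0.000181).

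Both enzymes that make the galactolipids of myelin fell. *Ugt8a*, which adds galactose to ceramide (chromosome 3, 125703915 to 125703974, mm7), read 5.10, 5.04, 5.03 and 5.19 at 40 days and 4.30, 4.09, 4.23 and 4.35 at 80 days. The fall was 0.85 (SE 0.10, limma adjusted p = 0.000519) and its other probe fell too. *Fa2h*, the hydroxylase that supplies the 2-hydroxy acids of these lipids, read 4.19, 4.33, 4.31 and 4.20 at 40 days and 3.69, 3.66, 3.45 and 3.41 at 80 days. The ages did not overlap and *Fa2h* fell by 0.71 (SE 0.10, limma adjusted p = 0.00212). *Mal*, a proteolipid of myelin membrane sorting, read 3.85, 4.00, 3.85 and 4.08 at 40 days and 3.28, 3.22, 3.07 and 3.11 at 80 days. Both of its probes passed, and it fell by 0.77 (SE 0.083, limma adjusted p = 0.000217).

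Genes of the structural proteins of myelin differed in their calls. *Tspan2*, a tetraspanin of oligodendrocytes, fell by 0.52 (SE 0.11, limma adjusted p = 0.0267) and passed under 15 of the 23 alternatives, not with the slide as a block (limma adjusted p = 0.055). *Mbp*, myelin basic protein, read 4.19, 4.17, 4.33 and 4.45 at 40 days and 4.18, 4.03, 4.15 and 4.14 at 80 days. The ages overlapped and its change was -0.16 (SE 0.10, limma adjusted p = 0.439), with another probe at 0.22 (unadjusted p = 0.0036). *Cnp*, the cyclic nucleotide phosphodiesterase, changed by 0.091 (SE 0.12, limma adjusted p = 0.752). *Mog*, a glycoprotein of the outer myelin surface, lay just outside the threshold at -0.51 (SE 0.12, limma adjusted p = 0.0553) with no overlap, and *Mobp* was at -0.39 (SE 0.11, limma adjusted p = 0.0976). Without the reset of bright backgrounds 2 of the 19 passed and the median was -0.18.

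Among 16 genes of the oligodendrocyte lineage before myelin, 1 fell, against 1.11% of all genes. At an unadjusted p under 0.05, 8 were lower (8.63% of all genes), and the median was -0.20. The member that fell was *Enpp6*, a choline phosphodiesterase that marks newly formed oligodendrocytes. It read 1.94, 2.32, 1.90 and 1.84 at 40 days and 0.95, 0.99, 1.04 and 1.32 at 80 days. All arrays of 80 days were lower, and *Enpp6* fell by 0.92 (SE 0.12, limma adjusted p = 0.000828), while a dimmer second probe changed by -0.24 (unadjusted p = 0.073). *Gpr17*, a receptor of the step just before, was at -0.29 (SE 0.071, limma adjusted p = 0.0552) and *Sox8*, a factor of the lineage, at -0.40 (SE 0.11, limma adjusted p = 0.092), both without overlap of the ages. Changes of precursor markers were near 0. *Pdgfra*, the growth factor receptor that marks precursors, read -0.37, -0.48, -0.58 and -0.47 at 40 days and -0.47, -0.50, -0.64 and -0.49 at 80 days, and its change was -0.047 (SE 0.063, limma adjusted p = 0.745). The proteoglycan gene *Cspg4* was at -0.015 (SE 0.071, limma adjusted p = 0.94).

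**Figure D2:**
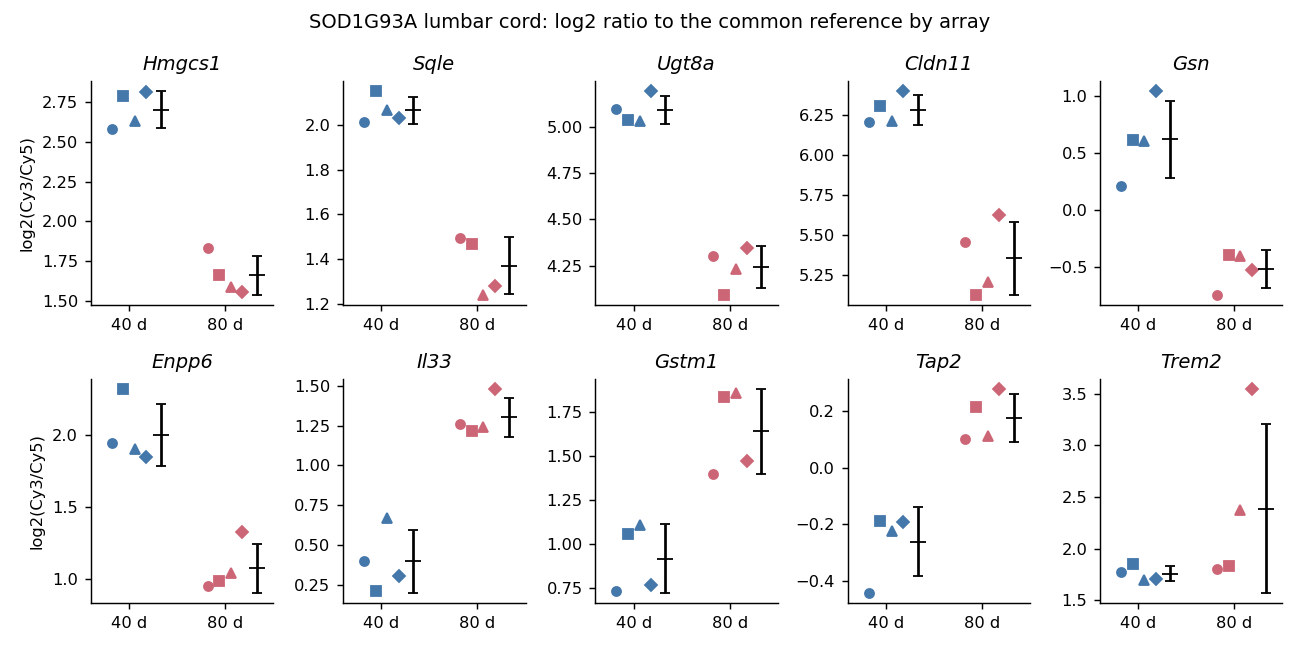
Log2 ratio of Cy3 to Cy5 (vertical axes) on each SOD1G93A array at 40 and 80 days (d) for 10 genes, with a marker shape for each replicate (circle 1, square 2, triangle 3, diamond 4) and bars for mean ± SD of 4 arrays. The ages do not overlap for *Hmgcs1*, *Sqle*, *Ugt8a*, *Cldn11*, *Gsn*, *Enpp6*, *Il33*, *Gstm1* and *Tap2*, whereas *Trem2* is high on replicate 4 of 80 days, at 3.55.

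Genes of MHC class I, which present peptides to T cells, had higher ratios at 80 days, few of them past the threshold. All 13 tested had positive changes with a median of 0.46, 10 of them at an unadjusted p under 0.05 (9.96% of all genes). At the adjusted threshold 2 rose, against 0.363% of all genes. Their score, the median deviation of the members from their mean over the 8 arrays, was -0.39 to -0.01 at 40 days, 0.04 to 0.16 on replicates 1 to 3 of 80 days and 0.70 on replicate 4. *Tap2*, a subunit of the transporter that loads peptides (chromosome 17, 32294682 to 32295269, mm7), read -0.44, -0.19, -0.22 and -0.19 at 40 days and 0.10, 0.22, 0.11 and 0.28 at 80 days. The ages did not overlap and *Tap2* rose by 0.44 (SE 0.082, limma adjusted p = 0.0118). *H2-M3*, a class Ib molecule that presents formylated peptides, read 0.17, 0.22, 0.17 and 0.15 at 40 days and 0.52, 0.41, 0.65 and 0.68 at 80 days. The ages were apart, and *H2-M3* rose by 0.39 (SE 0.084, limma adjusted p = 0.0314), a call lost under 11 of the 23 alternatives, among them the one without replicate 4 of 80 days (0.35).

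The classical class I genes varied more between arrays and did not pass. *H2-D1* read -0.62, -1.27, -1.38 and -1.85 at 40 days and -0.53, -0.67, -0.14 and 0.15 at 80 days. Replicate 1 of 40 days was inside the range of 80 days, and the change was 0.98 (SE 0.32, limma adjusted p = 0.142). *H2-K1* changed by 0.65 (SE 0.24, limma adjusted p = 0.179) and *H2-Q7* by 0.82 (SE 0.27, limma adjusted p = 0.14). These genes are close paralogs, and probes may bind transcripts of more than 1 of them. The immunoproteasome subunits *Psmb8* (0.45, limma adjusted p = 0.111) and *Psmb9* (0.46, limma adjusted p = 0.132) had positive changes without overlap of the ages. *B2m*, the light chain, read -0.97, -0.77, -0.94 and -0.90 at 40 days and -0.67, -1.04, -0.68 and 0.60 at 80 days, so that its change of 0.45 (SE 0.24, limma adjusted p = 0.34) lay mostly in replicate 4. Without replicate 4 of 80 days the median of the list was 0.41 and 1 member passed.

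The lists of microglial and astrocytic activation stood highest on replicate 4 of 80 days, and their medians were smaller without it. All 16 activated microglia genes tested had positive changes (median 0.30), 3 were higher at an unadjusted p under 0.05 (9.96% of all genes) and 0 passed in limma after adjustment. Their score was 0.89 on replicate 4 of 80 days and -0.19 to 0.08 on the other 7 arrays. *Trem2*, a lipid receptor of microglia, read 1.77, 1.85, 1.70 and 1.71 at 40 days and 1.80, 1.83, 2.37 and 3.55 at 80 days, with replicate 4 far above the others. *Cd68*, a lysosomal protein of phagocytes, read -0.20, -0.12, -0.063 and -0.063 at 40 days and 0.037, -0.018, 0.16 and 1.07 at 80 days. Its ages did not overlap, but the change of 0.42 (SE 0.21, limma adjusted p = 0.306) did not pass. *Serpina3n*, a protease inhibitor of reactive astrocytes, read 0.88, 1.12, 0.85 and 1.06 at 40 days and 1.21, 1.27, 1.65 and 2.15 at 80 days, also without overlap, and changed by 0.59 (SE 0.20, limma adjusted p = 0.152). The reactive astrocyte score was -0.24 to -0.09 at 40 days, -0.13 to -0.06 on replicates 1 to 3 of 80 days and 0.84 on replicate 4. Without replicate 4 of 80 days the median changes were 0.05 for activated microglia, 0.02 for microglia (0.23 with it), 0.12 for reactive astrocytes (0.33 with it) and 0.01 for the interferon response (0.17 with it). *Aif1*, *Itgam* and *Cx3cr1*, defining markers of microglia, changed by 0.29, 0.15 and 0.034, none past the threshold. The 10 sterol and 7 myelin calls stood at the same numbers without this array. Of 5 MHC class II genes tested all had positive changes (median 0.30) and 0 passed. Of 11 complement genes 0 passed (median 0.15). At an unadjusted p under 0.05, 1 of the 5 and 2 of the 11 were higher, against 9.96% of all genes.

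**Figure D3:**
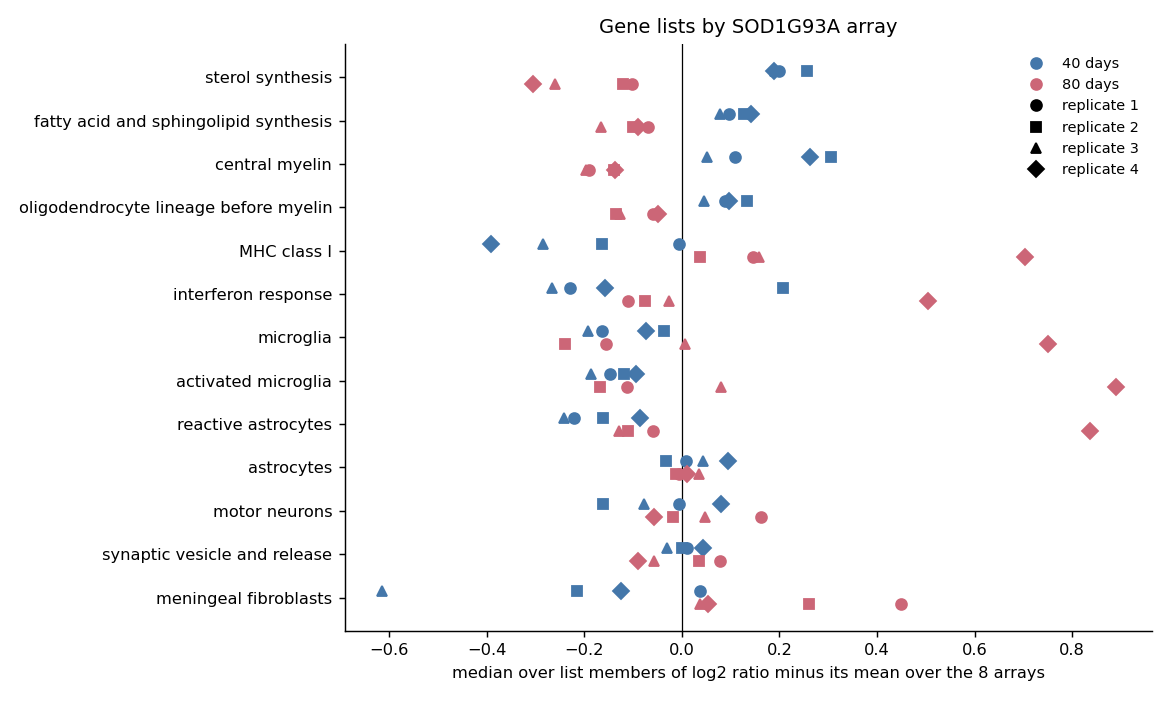
Score of 13 gene lists on each SOD1G93A array, the median over members of the log2 ratio minus its mean over the 8 arrays (horizontal axis), for 40 days (blue) and 80 days (red) with a shape for each replicate. Sterol scores are 0.19 to 0.26 at 40 days and -0.31 to -0.10 at 80 days, while replicate 4 of 80 days stands alone for microglia (0.75), activated microglia (0.89) and reactive astrocytes (0.84).

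The gene with the largest rise among those without overlap was *Il33*, a nuclear cytokine released from damaged cells and made in the cord by oligodendrocytes and astrocytes. It read 0.40, 0.21, 0.67 and 0.31 at 40 days and 1.26, 1.22, 1.24 and 1.48 at 80 days. Every array of 80 days was above every array of 40 days, replicate 4 most of all, and *Il33* rose by 0.90 (SE 0.13, limma adjusted p = 0.00214) at chromosome 19, 29660344 to 29660403 (mm7). It passed under each of the 23 alternatives. *Irf1*, an interferon regulatory factor, read -2.04, -2.19, -2.38 and -2.23 at 40 days and -1.85, -1.84, -1.81 and -1.48 at 80 days. *Irf1* rose by 0.47 (SE 0.10, limma adjusted p = 0.0391), yet 14 of the alternatives ended that call, the slide as a block among them (limma adjusted p = 0.0762).

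Among the largest rises were 3 glutathione S-transferases, enzymes that conjugate electrophiles and lipid peroxidation products. *Gstm1* read 0.73, 1.06, 1.11 and 0.77 at 40 days and 1.40, 1.84, 1.86 and 1.47 at 80 days. The ages did not overlap on any array, and *Gstm1* rose by 0.72 (SE 0.16, limma adjusted p = 0.0329), a call that 12 of the 23 alternatives ended. *Gstm3* rose by 0.74 (SE 0.15, limma adjusted p = 0.0175). The 2 are close paralogs, so probes may share transcripts and the 2 rises may be 1 measurement. *Gstt3*, of another class, read -0.58, -0.76, -0.51 and -0.53 at 40 days and -0.14, 0.065, 0.040 and -0.34 at 80 days, and rose by 0.50 (SE 0.10, limma adjusted p = 0.0141). In the list of 26 antioxidant genes *Gstm1* was the single member called, with a list median of 0.04. *Nqo1*, a quinone reductase, was at 0.24 (SE 0.065, limma adjusted p = 0.0789) and *Cat*, catalase, at -0.26 (SE 0.10, limma adjusted p = 0.191), neither past the threshold.

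Other rises were spread over unrelated functions. *Nnat*, an imprinted gene of neurons, read 0.24, 0.073, -0.13 and 0.40 at 40 days and 0.54, 0.60, 0.92 and 0.79 at 80 days, and rose by 0.57 (SE 0.13, limma adjusted p = 0.0479). *Ccdc88b*, an adaptor known from immune cells, rose by 0.57 (SE 0.10, limma adjusted p = 0.00995) and was highest on replicate 4. *Itgb5*, an integrin subunit, rose by 0.55 (SE 0.13, limma adjusted p = 0.0476), and *P4ha2*, a prolyl hydroxylase of collagen, by 0.55 (SE 0.13, limma adjusted p = 0.0468). *Gabarapl1*, a protein of autophagosome membranes, rose by 0.44 (SE 0.093, limma adjusted p = 0.0293). *Clmp*, an adhesion molecule, rose by 0.83 (SE 0.17, limma adjusted p = 0.0246) although replicate 1 read 0.51 at 40 days and 0.37 at 80 days. Its dimmer probe changed by 0.067 (unadjusted p = 0.43), and 10 of the 23 alternatives ended the call of *Clmp*. The calls of *Nnat*, *Itgb5*, *P4ha2* and *Gabarapl1* were each lost under 13 to 16 of the 23 alternatives. With the slide as a block these 4 and *Clmp* did not pass, with limma adjusted p from 0.053 for *Clmp* to 0.0735 for *P4ha2*.

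Other large falls were in genes of varied function. *Cdkn1c*, an imprinted inhibitor of the cell cycle, read -1.39, -1.04, -0.93 and -0.92 at 40 days and -2.33, -1.97, -1.99 and -2.09 at 80 days. The ages lay apart on every slide and *Cdkn1c* fell by 1.03 (SE 0.13, limma adjusted p = 0.000828). *Marcksl1*, an actin-regulating protein of growing neurites, read -0.047, 0.31, 0.066 and 0.23 at 40 days and -0.79, -0.58, -0.85 and -0.47 at 80 days, and fell by 0.81 (SE 0.10, limma adjusted p = 0.000519). *Barx2*, a homeobox factor, read 1.39, 1.62, 1.64 and 1.68 at 40 days and 0.59, 0.83, 0.63 and 0.66 at 80 days. It fell by 0.91 (SE 0.11, limma adjusted p = 0.000702), and its dimmer probes, at -0.31 and -0.33, did not pass. *Cpox*, an enzyme of heme synthesis, fell by 0.85 (SE 0.13, limma adjusted p = 0.00272), and *Dpy19l1*, a mannosyltransferase, by 0.82 (SE 0.13, limma adjusted p = 0.00399). *Cdkn1c*, *Marcksl1*, *Cpox* and *Dpy19l1* passed under each of the 23 alternatives.

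Matrix genes showed single falls. *Nid1*, nidogen of basement membranes, read -2.43, -2.45, -2.56 and -2.05 at 40 days and -2.97, -3.31, -3.14 and -3.14 at 80 days, and fell by 0.76 (SE 0.14, limma adjusted p = 0.0089) as the single member called among 25 collagen, laminin and related genes. *Ncan*, a chondroitin sulfate proteoglycan of perineuronal nets, fell by 0.34 (SE 0.074, limma adjusted p = 0.0326), a call that 13 of 23 alternatives ended. *Has2*, a hyaluronan synthase, fell by 0.25 (SE 0.058, limma adjusted p = 0.0498), a call that 20 of 22 alternatives ended. *Npc2*, which carries cholesterol out of lysosomes, fell by 0.30 (SE 0.071, limma adjusted p = 0.0498), a call that 18 of 23 alternatives ended. With the slide as a block the limma adjusted p was 0.0775 for *Has2* and 0.062 for *Npc2*. *Rgs5*, a marker of pericytes, was at -0.72 (SE 0.17, limma adjusted p = 0.0534), just outside the threshold and without overlap of the ages.

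Markers of neurons had small changes. Of 15 motor neuron genes tested, 0 passed after adjustment in limma and 2 were higher at an unadjusted p under 0.05 (median 0.06). Over all genes 9.96% were higher and 8.63% lower at that p. *Slc18a3*, the vesicular acetylcholine transporter, read 0.85, 1.09, 0.85 and 1.08 at 40 days and 1.36, 1.47, 1.28 and 1.23 at 80 days. The ages did not overlap, but the change of 0.37 had a limma adjusted p of 0.136. *Ngfr*, the low-affinity neurotrophin receptor, read 0.023, 0.081, -0.013 and 0.16 at 40 days and 0.47, 0.33, 0.48 and 0.42 at 80 days, with a change of 0.36 (SE 0.10, limma adjusted p = 0.092) and no overlap. *Slc5a7*, the choline transporter of cholinergic terminals, changed by -0.024 and the motor neuron factor *Isl1* by 0.021. *Chat* did not pass the filter on dim signals. The neurofilament genes *Nefl*, *Nefm* and *Nefh* changed by -0.15, -0.12 and -0.041, none past the threshold. A dimmer probe of *Nefh* was at -0.25 without overlap of the ages (limma adjusted p = 0.117). Of 23 genes of synaptic vesicles and release 0 passed in limma after adjustment, with 3 at an unadjusted p under 0.05 and a median of -0.03.

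Astrocyte markers had changes of both signs. Of 16 tested 0 passed after adjustment in limma, and the median was -0.02. In both directions together 3 had an unadjusted p under 0.05, against 9.96% of all genes higher and 8.63% lower. *Gfap*, the intermediate filament of astrocytes, read 6.47, 6.56, 6.58 and 6.62 at 40 days and 6.12, 6.13, 6.55 and 6.61 at 80 days. Replicates 1 and 2 of 80 days were below all arrays of 40 days, and the change was -0.21 (SE 0.12, limma adjusted p = 0.417). The dimmer probes of *Gfap* went the other way, at 0.023 and 0.25 (limma adjusted p = 0.943 and 0.635). *Aqp4*, the water channel of their endfeet, was at -0.47 (SE 0.20, limma adjusted p = 0.251) and *Slc1a2*, the glutamate transporter, at -0.023 (SE 0.092, limma adjusted p = 0.928). Dimmer probes of *Slc1a2* were at -0.16 and -0.30, the latter without overlap of the ages (limma adjusted p = 0.121).

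Lists of other cell types and of cell housekeeping were near the median of all genes, with a few exceptions. Meningeal fibroblast genes had the highest median, 0.54 over 13 genes, with 3 higher at an unadjusted p under 0.05 and 0 passing in limma after adjustment. Without replicate 3 of 40 days that median was 0.20, and without other single SOD1G93A arrays 0.43 to 0.61, against 0.41 to 0.65 for MHC class I. Their score was -0.62 to 0.04 at 40 days and 0.04 to 0.45 at 80 days. *Dcn*, decorin of fibroblasts, read -1.81, -2.49, -3.73 and -1.53 at 40 days and -0.33, -0.86, -1.37 and -1.65 at 80 days. The ages overlapped through replicate 4, and how much meninges stayed on each cord was not tested. The skeletal muscle score was 2.13 on replicate 2 of 40 days and -0.78 to 0.65 on the other arrays. Of 20 clock genes 7 were higher at an unadjusted p under 0.05 (9.96% of all genes), and 0 passed in limma after adjustment. Among them *Per1*, a repressor of the clock, was at 0.48 (SE 0.16, limma adjusted p = 0.142) and *Cry2*, its partner, at 0.42 (SE 0.12, limma adjusted p = 0.0962). Of 22 genes of endoplasmic reticulum stress 8 were lower at an unadjusted p under 0.05 (8.63% of all genes), and 0 passed in limma after adjustment. *Hyou1*, a chaperone of the reticulum, lay next to the threshold at -0.43 (SE 0.10, limma adjusted p = 0.0506), and *Sel1l*, of its degradation complex, was at -0.35 (SE 0.090, limma adjusted p = 0.0688). A dimmer probe of *Sel1l* went the other way, at 0.20 (unadjusted p = 0.030). Of 75 oxidative phosphorylation genes 1 rose, *Atp5a1* of the ATP synthase, by 0.40 (SE 0.081, limma adjusted p = 0.021), and of 82 ribosomal protein genes 1 rose, *Rpl13a*, by 0.32 (SE 0.061, limma adjusted p = 0.0121). *Rpl13a* has many pseudogene copies. Of 20 glycolysis genes 6 were higher at an unadjusted p under 0.05 (9.96% of all genes) and 0 passed in limma after adjustment (median 0.06). Of 26 heat shock and chaperone genes 0 passed (median 0.02, 5 at an unadjusted p under 0.05), of 37 proteasome genes 0 (median 0.03, 7 at an unadjusted p under 0.05), and of 17 endothelial genes 0 (median 0.06, 1 at an unadjusted p under 0.05). None of 23 genes linked to familial amyotrophic lateral sclerosis passed in limma after adjustment (median 0.04), and 6 had an unadjusted p under 0.05. Counts given here without a direction take both directions together. Over all genes 9.96% were higher and 8.63% were lower at an unadjusted p under 0.05.

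To place this course beside that of normal cord, the changes were set against those of wild-type mice of the same ages. The genotypes share slides and reference but no cord arrays. On each slide the wild-type array of 40 days lay at the first place and that of 80 days at the third. Place on the slide and age therefore cannot be told apart in either genotype. Whether place bore on changes shared by the genotypes was not tested. Of the 191 genes called in SOD1G93A mice 183 had the same sign in wild-type mice and 155 had in addition an unadjusted p under 0.05 there. Over all 12946 genes 8526 had the same sign in both genotypes, and 1639 of these had in addition an unadjusted p under 0.05 in wild-type mice. The 144 that fell had a median change of -0.43 in SOD1G93A and -0.40 in wild-type mice. The 47 that rose had medians of 0.40 and 0.18. As the genes were called on the SOD1G93A changes, these medians are no test of a difference. The sterol list had a median of -0.45 in wild-type mice, with 12 falls among 21 genes. The myelin list had a median of -0.22 there, with 7 falls among 19 genes. Over all 12946 genes 198 fell and 34 rose in wild-type mice at an adjusted p under 0.05 in limma. *Hmgcs1* changed by -1.07 in wild-type mice and *Gsn* by -1.20. *Il33* changed by 0.64 and *Gstm1* by 0.73. For these 4 genes the difference between the genotypes was -0.0056 to 0.26, with unadjusted p from 0.18 to 0.98 in limma. For MHC class I the wild-type median was 0.27 and for activated microglia 0.09.

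**Figure D4:**
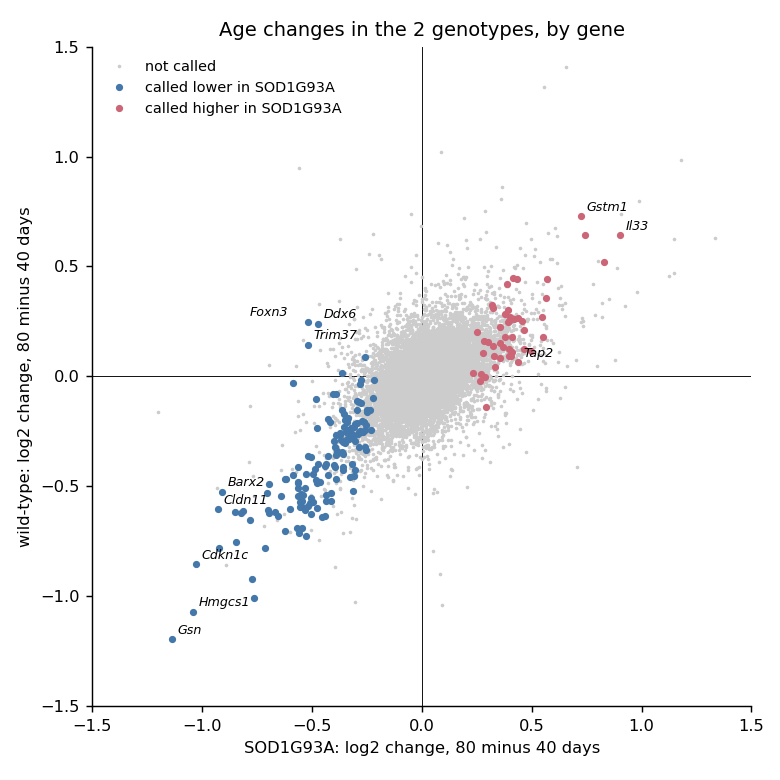
Log2 change from 40 to 80 days of each of 12946 genes in SOD1G93A cord (horizontal axis) and wild-type cord (vertical axis), with genes called higher or lower in SOD1G93A in color. Most called genes that fell lie near equal falls in both genotypes, such as *Hmgcs1* (-1.04 and -1.07), whereas *Ddx6*, *Trim37* and *Foxn3* fell in SOD1G93A and were positive in wild-type.

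The difference of the age changes was then tested directly. In limma 0 of 21953 probes passed after adjustment (smallest adjusted p 0.496), and 1466 had an unadjusted p under 0.05. By gene, 716 of 12946 had an unadjusted p under 0.05 (5.53%). The genes below had the smallest p and none passed the adjustment. Of the 8, *Ddx6*, *Trim37*, *Foxn3*, *Azin1* and *2210016L21Rik* were lower with age in SOD1G93A and higher in wild-type mice, and *Pex2*, *Edem2* and *Sdhc* the reverse.

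*Ddx6*, an RNA helicase of processing bodies (chromosome 9, 44571049 to 44571108, mm7), read 1.19, 1.16, 0.98 and 0.98 at 40 days and 0.79, 0.61, 0.55 and 0.48 at 80 days in SOD1G93A mice. All 4 later arrays were lower. In wild-type mice its mean went from 0.65 ± 0.21 (SD, n = 4) to 0.89 ± 0.082 (SD, n = 4). The difference of the changes, SOD1G93A minus wild-type, was -0.71 (SE 0.13, unadjusted p = 6.91e-05 in limma). *Trim37*, a ubiquitin ligase (chromosome 11, 87210421 to 87210480, mm7), read 3.71, 3.60, 3.62 and 3.49 at 40 days and 3.28, 3.08, 2.92 and 3.06 at 80 days, with no overlap. Its wild-type mean went from 3.33 ± 0.11 (SD, n = 4) to 3.48 ± 0.19 (SD, n = 4), a difference of -0.66 (SE 0.13, unadjusted p = 0.000131 in limma). The 2 dimmer probes of *Trim37* changed by -0.03 and -0.07 in SOD1G93A mice. *Foxn3*, a forkhead factor (chromosome 12, 96690862 to 96690921, mm7), had a difference of -0.77 (SE 0.16, unadjusted p = 0.000175 in limma), and its dimmer probes changed by -0.24 and -0.08 in SOD1G93A mice without passing.

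*Azin1*, which inhibits the breakdown of ornithine decarboxylase, read 0.020, -0.11, -0.094 and -0.18 at 40 days and -0.36, -0.28, -0.24 and -0.33 at 80 days in SOD1G93A mice. The ages were apart, and the difference from wild-type mice was -0.44 (SE 0.081, unadjusted p = 6.34e-05 in limma), while dimmer probes changed by -0.04 and -0.05 in SOD1G93A mice. *Edem2*, of the degradation of misfolded glycoproteins, read 0.23, 0.23, 0.25 and 0.23 at 40 days and 0.43, 0.50, 0.55 and 0.64 at 80 days. Its arrays of 40 days lay close together and below those of 80 days, and the difference was 0.43 (SE 0.093, unadjusted p = 0.00025 in limma). *Pex2*, a ubiquitin ligase of peroxisomes, had a difference of 0.41 (unadjusted p = 0.000219 in limma) and *Sdhc*, of mitochondrial complex II, of 0.32 (unadjusted p = 0.000337 in limma). *2210016L21Rik* had a difference of -0.34 (unadjusted p = 0.000467 in limma).

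The central myelin list and the MHC class I list each held 1 member with an unadjusted p under 0.05 for the difference, of 19 and 13 genes, against 5.53% of all genes. *Tap2*, of the class I list, rose by 0.44 in SOD1G93A mice and changed by 0.064 in wild-type mice, a difference of 0.38 (SE 0.12, unadjusted p = 0.00487 in limma). *Cldn11*, of the myelin list, fell by 0.93 in SOD1G93A mice and changed by -0.60 in wild-type mice, a difference of -0.32 (SE 0.13, unadjusted p = 0.0277 in limma).

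**Figure D5:**
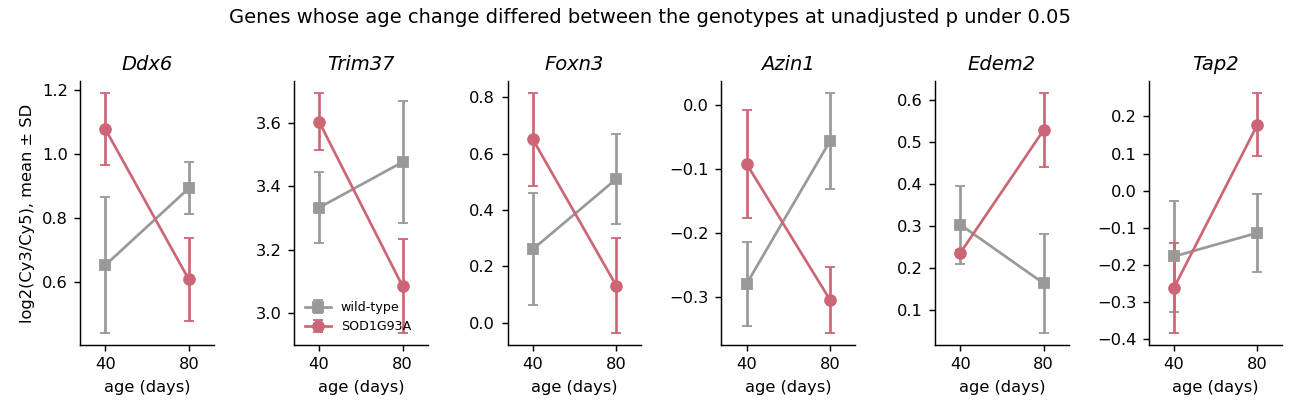
Mean log2 ratio of Cy3 to Cy5 ± SD of 4 arrays (vertical axes) at 40 and 80 days for SOD1G93A (circles) and wild-type (squares) for 6 genes. The lines of *Ddx6*, *Trim37*, *Foxn3* and *Azin1* fall in SOD1G93A and rise in wild-type, those of *Edem2* do the reverse, and *Tap2* changes by 0.44 in SOD1G93A and 0.064 in wild-type, none at an adjusted p under 0.05 for the difference.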

How the data were processed

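The authors scanned 16 two-color arrays (Cy3 cord, Cy5 reference) and, per the labels, extracted spots with Agilent Feature Extraction 9.5.3.1. The deposited spot signals are linear intensity values without normalization, and the authors' normalized log2 values in the series matrix served as an alternative. The samples, gene lists and named genes were chosen with earlier results of these data known.

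Here median signals were corrected with limma 3.58.1 in R 4.3.3 (packages statmod 1.5.0 and data.table, version 1.17.8). Local backgrounds over 20 units above their spot were set to the array's median background, followed by normexp (offset 50), loess within arrays and Aquantile. Control and outlier spots were left out, and spots of a probe averaged. Of 41174 probes, 22676 were named by accession and 9607 by symbol, and 8891 were unnamed.

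Probes were kept where Cy3 was marked well above background on 3 or more of the 4 arrays of an age and measured on 2 or more of each age. lmFit and eBayes were fitted to 16 arrays with a mean for each group. A gene was called at a Benjamini-Hochberg adjusted p under 0.05, and since fewer than 100 probes passed for the difference between genotypes, an unadjusted p under 0.05 is given there. P-values are two-sided. With 4 arrays per group their number limits precision. No set test was run on the 47 gene lists.

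Named were the 12 largest rises and falls without overlap of the ages, up to 4 called members and the defining markers of the lists, *Gapdh*, *Sod1* and the 8 smallest p of the difference. The remaining sterol, lipid, myelin, MHC, glial, clock, stress and neuronal genes, and *Clmp*, were named after their values were seen. Results of a few genes that the rule names are not reported here, while counts, medians and scores include them.

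Alternatives changed the background, foreground, normalization, channel, filter, outlier spots, array set, weights, eBayes, replicate block and single arrays. The steps were checked on simulated data. Promoters are those of RefSeq (GRCm38.p6). Probe positions are those of the files (mm7), and where in a gene a probe lies was not analysed here.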

Additional observations from a re-analysis of the deposited data

Results flagged for a closer look

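The difference between the age changes of the genotypes (SOD1G93A minus wild-type, log2) had an unadjusted p under 0.05 in limma for 18 of the 127 named genes, and none passed after adjustment. Over all genes 5.53% had such a p. Values are those of the brightest probe of each gene. It was positive for *Gstt3* (0.38), *Tap2* (0.38), *Atp5a1* (0.31), *Rpl13a* (0.19), *Cspg4* (0.28), *Slc18a3* (0.37), *Pex2* (0.41), *Edem2* (0.43) and *Sdhc* (0.32). It was negative for *Cldn11* (-0.32), *Barx2* (-0.38), *Gfap* (-0.41), *Syt1* (-0.43), *Azin1* (-0.44), *Ddx6* (-0.71), *Trim37* (-0.66), *Foxn3* (-0.77) and *2210016L21Rik* (-0.34). Of these, *Pex2*, *Edem2*, *Sdhc*, *Azin1*, *Ddx6*, *Trim37*, *Foxn3* and *2210016L21Rik* were named for their small p in this comparison. *Gstt3*, *Tap2*, *Cldn11*, *Barx2*, *Atp5a1* and *Rpl13a* were named for called age changes in SOD1G93A mice, which are a part of the difference. The number of named genes with such a p is therefore no test.

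A single array stood apart from the other 3 of its age for 15 of 254 gene and age combinations, where about 1 in 20 would be met by chance. The values are the gap to the nearest array divided by the range of the 4. At 80 days this was so for *Il33* (0.833), *Ccdc88b* (0.879), *Irf1* (0.889), *Pdgfra* (0.831), *Snap25* (0.870), *Pecam1* (0.906), *Cldn5* (0.916), *H2-K1* (0.842) and *Cd68* (0.835). Replicate 4 was the high array for *Il33*, *Ccdc88b*, *Irf1*, *H2-K1* and *Cd68*. At 40 days it was so for *Tap2* (0.859), *Dpy19l1* (0.890), *Myh2* (0.912), *Alb* (0.976), *2210016L21Rik* (0.863) and *Hsd17b7* (0.868). For *Myh2*, a myosin of skeletal muscle, replicate 2 read 4.24 and the others -0.11 to 0.27, and for *Alb*, albumin of liver, replicate 4 read -1.86 and the others -3.06 to -3.03.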

How the results depend on the processing

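No named gene changed direction while called. For 52 called genes, 1195 values were computed under the alternatives, of which 900 kept their call and 295 lost it. The numbers of probes higher and lower (57 and 197) moved to 13 and 66 without the reset of bright backgrounds, 13 and 56 without loess, 18 and 114 in the Cy3 channel alone, 17 and 131 with the series matrix, 504 and 652 with array weights, and 15 and 88 without both arrays of slide 4, an alternative chosen after seeing the data. The number higher was 30 with processed signals, 35 without the filter on dim probes and 143 from the SOD1G93A arrays only. Leaving out 1 array gave 15 to 60 higher and 112 to 198 lower. The count higher was 30, 15, 19 and 21 without replicates 1 to 4 of 40 days, and 26 and 15 without replicates 2 and 3 of 80 days. The count lower was 115, 124 and 114 without replicates 2, 3 and 4 of 40 days, and 120 and 112 without replicates 2 and 3 of 80 days. Probes with an unadjusted p under 0.05 for the difference between genotypes (1466) were 797 without the reset, 975 with the series matrix, 2459 without the filter, and 1184 to 1777 without single arrays. The median of central myelin was -0.18 both without the reset and with processed signals (-0.35 to -0.23 without single arrays), and that of the lineage before myelin -0.090 without the reset and -0.13 without loess (-0.23 to -0.20). That of fatty acid and sphingolipid genes was -0.19 without loess (-0.28 to -0.23). Without single arrays the medians were -0.41 to -0.31 for sterol, 0.05 to 0.42 for activated microglia and 0.41 to 0.65 for MHC class I genes. The cause of these shifts was not tested.

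Arrays of the same slide share a replicate number. Their deviations correlated at 0.09 to 0.23, all 4 positive but not all above 0.1, and those of different slides at -0.18 to 0.07, and the main test had no block. With the replicate number as a block 40 probes were higher and 169 lower, 11 sterol and 7 myelin genes were called, and 1501 probes had an unadjusted p under 0.05 for the difference between genotypes. Of the 52 called genes 39 kept their call with the block, and 13 did not, with adjusted p of 0.0512 for *Foxn3*, 0.0514 for *Ddx6*, 0.0643 for *Edem2* and, for *Clmp*, *Tspan2*, *Nnat*, *Gabarapl1*, *Npc2*, *Itgb5*, *Sptlc2*, *P4ha2*, *Irf1* and *Has2*, 0.053 to 0.0775.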
